A study of Mus musculus with 8 samples.

Results

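The vomeronasal receptor genes Vmn1r85 and Vmn1r89 were followed across 8 vomeronasal organ libraries, 4 from adult mice heterozygous for Tex15 and 4 from adult Tex15 knockout mice. Both genes were taken by symbol, and they are 2 of the 229 entries with a Vmn1r symbol among 27532 genes in the table. Tex15 encodes a germ cell protein known from the silencing of transposons. Heterozygous animals were 1 male (replicate 1) and 3 females aged 11.4 to 14.6 weeks. Knockout animals were 1 female (replicate 1) and 3 males aged 11.9 to 12.1 weeks. All 8 animals carried at least 1 altered Tex15 allele, so the controls were heterozygous rather than wild type. The allele, the strain and the estrous stage of the females were not given in the labels used here. The labels name 1 mouse per library, so each library was treated as a separate animal.

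V1R receptors are G protein-coupled receptors of the apical layer of the vomeronasal epithelium, where each sensory neuron expresses mainly a single receptor gene and signals through the G protein subunit Gnai2. Vmn1r85 (synonym V1rj3) and Vmn1r89 (synonym V1rj2) are known as receptors for sulfated estrogens, steroid conjugates that female mice excrete in urine. In bulk tissue the level of such a receptor reflects both how many neurons chose it and how much RNA each makes, and fewer cells and less RNA per cell cannot be told apart.

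Both genes lie in a single V1R cluster on chromosome 7 (GRCm38, GENCODE M21). Vmn1r85 (ENSMUSG00000070817, 13083313 to 13095173, minus strand) has a coding sequence of 927 bases in 1 exon (13084289 to 13085215). Vmn1r89 (ENSMUSG00000095629, 13213020 to 13220657, plus strand) has a coding sequence of 951 bases in 1 exon (13219339 to 13220289). The remaining exons of both genes are untranslated. Between them lie Vmn1r86, Vmn1r87 and Vmn1r88, and the annotated ends of Vmn1r85 and Vmn1r86 are 2357 bases apart. The coding sequence of Vmn1r85 matched that of Vmn1r89 over 69.5% of positions, against a median of 51.3% over the 207 other V1R genes with a coding sequence. The closest relative of Vmn1r89 was not Vmn1r85 but its neighbour Vmn1r86, at 90.7%, followed by Vmn1r88 at 87.4%. The first 240 coding bases of the 3 genes are shown because the near-identity of Vmn1r86 to Vmn1r89 bears on how far their reads can be separated. Capitals mark bases that do not match Vmn1r89 in the lines for Vmn1r85 and Vmn1r86, and bases that do not match Vmn1r85 in the line for Vmn1r89.
Vmn1r85: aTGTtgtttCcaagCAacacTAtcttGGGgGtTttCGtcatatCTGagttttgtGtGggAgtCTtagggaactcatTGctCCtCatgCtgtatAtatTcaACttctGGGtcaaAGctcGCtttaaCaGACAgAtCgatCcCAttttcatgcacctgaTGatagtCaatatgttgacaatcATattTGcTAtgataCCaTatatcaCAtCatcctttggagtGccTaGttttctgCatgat
Vmn1r89: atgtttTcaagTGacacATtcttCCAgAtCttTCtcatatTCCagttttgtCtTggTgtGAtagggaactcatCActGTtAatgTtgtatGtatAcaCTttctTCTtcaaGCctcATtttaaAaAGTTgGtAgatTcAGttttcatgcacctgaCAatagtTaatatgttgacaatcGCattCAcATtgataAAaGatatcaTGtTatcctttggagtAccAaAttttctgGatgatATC
Vmn1r86: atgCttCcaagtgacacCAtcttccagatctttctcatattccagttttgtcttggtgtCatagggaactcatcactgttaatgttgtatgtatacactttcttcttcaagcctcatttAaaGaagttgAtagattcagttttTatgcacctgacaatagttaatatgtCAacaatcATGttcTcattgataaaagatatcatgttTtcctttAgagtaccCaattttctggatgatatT
In this stretch 69 bases of Vmn1r85 and 19 bases of Vmn1r86 were unmatched to Vmn1r89. Over whole transcripts, 99.5% of the 100-base windows of Vmn1r85 and 99.7% of those of Vmn1r89 occurred in no transcript of another gene. The 16 shared windows of Vmn1r89 were all shared with Vmn1r86. The 36 shared windows of Vmn1r85 belonged to the overlapping processed pseudogene Gm4270 on the opposite strand, which was listed at no more than 1.34 TPM in any library.

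Values are TPM, transcript abundances scaled by gene length to a sum of 1000000 per library. Whole reads recovered from the TPM steps came to 17889116 to 26420256 per library, with the fewest in knockout replicate 1. As a check of the labels, Tex15 stood at 2.27 to 2.81 TPM in heterozygous and 0.870 to 1.23 TPM in knockout libraries, without overlap, and it was not called (limma adjusted p = 0.794). Heterozygous replicate 1 stood apart in Omp, the marker of mature olfactory and vomeronasal neurons, with 66.6 TPM against 571 to 943 TPM in the other 7 libraries. Heterozygous replicate 2 stood apart in markers of other cells of the nose: the supporting cell gene Cyp2g1 was at 758 TPM there and at 20.1 to 84.7 TPM elsewhere, and the main olfactory channel gene Cnga2 at 27.3 TPM against 1.27 to 13.5 TPM. Its summed red blood cell markers were also the highest, at 20894 TPM against 3894 to 14310 TPM. By their animal numbers heterozygous replicates 1 and 2 belonged to an earlier-numbered set of mice, and the figure that ends each library title, whose meaning the labels do not give, also differs between this set and the others. The remaining 6 mice, called the later animals here, included every knockout. Results are therefore also given for the later animals alone.

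The level of Vmn1r85 was lower in knockout tissue on average, with overlap between the groups. In heterozygous replicates 1 to 4 it stood at 7.50, 5.35, 17.2 and 12.6 TPM, and in knockout replicates 1 to 4 at 3.96, 6.50, 7.09 and 7.53 TPM. Only heterozygous replicates 3 and 4 lay above all knockout libraries. The means were 10.7 ± 5.30 and 6.27 ± 1.60 TPM (SD, n = 4). On the log2(TPM + 0.5) scale with sex as a term, the fitted genotype difference was −0.70 (SE 0.44), and the gene was not called (limma adjusted p over all genes 1.0). That fit averages the contrast within females with the contrast within males. Heterozygous replicate 1, the only male there, and knockout replicate 1, the only female there, therefore weigh heavily in it. The median tested gene was itself 0.19 higher in knockout, and set against it the difference of Vmn1r85 was −0.89. Fold changes below are given against that median gene, while each limma p tests the fitted difference before the shift. These values rest on 271 to 1114 recovered reads per library, a counting error of 3.0% to 6.07%, well below the spread between animals.

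Vmn1r89 was the more abundant of the pair in every library, and its TPM showed no steady direction. In heterozygous replicates 1 to 4 it stood at 21.2, 11.5, 38.8 and 28.7 TPM, and in knockout replicates 1 to 4 at 19.4, 30.6, 33.1 and 42.0 TPM. The groups overlapped over most of their range, with means of 25.1 ± 11.5 and 31.3 ± 9.31 TPM (SD, n = 4). The fitted log2 difference was 0.22 (SE 0.42; limma adjusted p = 1.0), or 0.02 against the median gene. The sign of the latter turned with median-ratio scaling, in the later animals with the sex term, and without heterozygous replicate 1 or 2 or knockout replicate 2 or 4. Recovered reads numbered 740 to 1999 per library.

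Neither receptor was therefore called by genotype, 0 of 2, where limma called 0.586% of all 20305 tested genes, 0.212% higher and 0.374% lower in knockout. Among the 159 tested V1R genes it called 6.92%, 1.26% higher and 5.66% lower. At an unadjusted p under 0.05 the count was 0 of 2 in limma and 1 of 2, Vmn1r85, in limma-voom on recovered reads. The same count took in 3.1% of all tested genes and 45.9% of tested V1R genes in limma, and 3.33% and 64.2% in limma-voom. Neither member had TPM values without overlap between the groups, 0 of 2, against 1.4% of all tested genes (0.473% higher and 0.926% lower) and 31.4% of tested V1R genes (5.03% higher and 26.4% lower). Among the later animals with the sex term, where the genotype term rests on knockout replicate 1 against 2 heterozygous females, Vmn1r85 was called (log2 fold change −1.45, limma adjusted p = 0.0288), and without the sex term it was not (−1.01, limma adjusted p = 0.157). Without knockout replicate 1 the Vmn1r85 value was −0.55. Within females the mean log2 difference in knockout was −1.31 for Vmn1r85 and −0.27 for Vmn1r89, and within males −0.09 and 0.71. These within-sex differences are not set against the median gene. Each contrast has 1 library on 1 side and was not tested. The sex coefficients were 0.14 and 0.34 (male minus female, log2), neither past the threshold (limma, adjusted p = 1.0 for both).

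Much of the spread in TPM was common to both receptors, and it was far smaller once each was expressed as a share of all V1R TPM. The summed V1R TPM was 331 to 1011 in heterozygous and 420 to 835 in knockout libraries. The share of Vmn1r85 in that sum was 1.39%, 1.62%, 1.70% and 1.70% in heterozygous replicates 1 to 4 and 0.942%, 0.952%, 0.917% and 0.902% in knockout replicates 1 to 4. Every knockout library lay below every heterozygous library, and the spread among knockout libraries was smaller than the counting error of each, with means of 1.60% ± 0.146 and 0.928% ± 0.0227 (SD, n = 4). The share of Vmn1r89 was 3.93%, 3.49%, 3.84% and 3.87% in heterozygous and 4.61%, 4.48%, 4.29% and 5.02% in knockout replicates 1 to 4. Here every knockout library lay above every heterozygous one, with means of 3.78% ± 0.199 and 4.60% ± 0.311 (SD, n = 4). The differences were −0.67 percentage points for Vmn1r85 and 0.82 for Vmn1r89, each with a two-sided exact permutation p of 0.0286, the smallest that 4 against 4 libraries allow. Adjusted over the 6 measures tested this way, both p-values were 0.0571 and missed the threshold of 0.05. Among the 159 tested V1R genes the shares of the groups were without overlap in 65.4%, 49.7% with the knockout lower and 15.7% with it higher, so separation as such was common in the family.

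**Figure D1:**
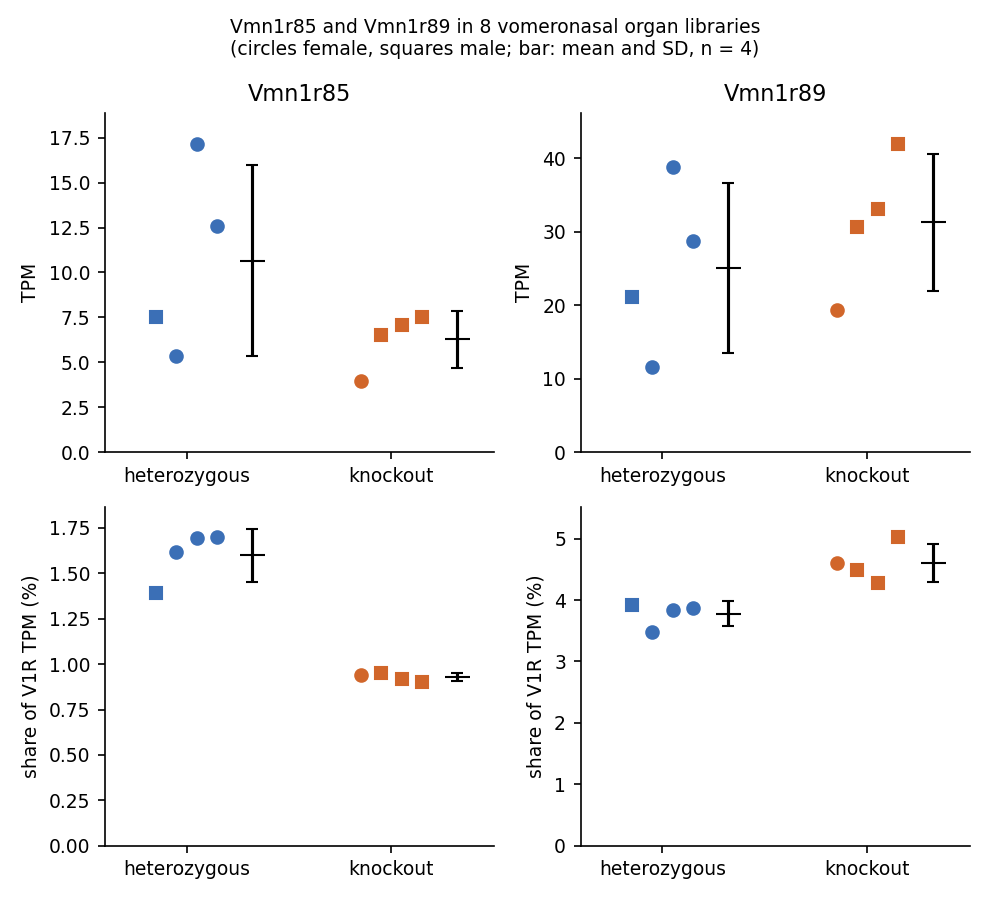
TPM (upper panels) and share of summed V1R TPM in percent (lower panels) of Vmn1r85 and Vmn1r89 in each library, with group mean and SD (n = 4) beside the points. The TPM ranges overlap for both genes, whereas the shares separate, downward from 1.60% to 0.928% for Vmn1r85 and upward from 3.78% to 4.60% for Vmn1r89.

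Counted as a share of recovered V1R reads, which are not scaled by gene length, Vmn1r85 stood at 2.55% in heterozygous and 1.47% in knockout and Vmn1r89 at 3.82% and 4.59%, also without overlap. Groups apart over all 8 libraries stay apart in any part of them, so only the size of the difference is given by subset. Between females, with 1 knockout library, the difference was −0.73 points for Vmn1r85 and 0.88 for Vmn1r89. Between males, with heterozygous replicate 1 alone on its side, it was −0.47 and 0.67. Among the later animals it was −0.77 and 0.75 points (exact permutation p = 0.0667 for each, the smallest that 2 against 4 libraries allow). The run Vmn1r32 to Vmn1r39 on chromosome 6 took 14.8% ± 2.54 of V1R TPM (SD, n = 4) in the heterozygous group and 28.9% ± 2.78 in the knockout group. In another setting that run was left out of the sum, a choice made after its values were known. Leaving it out raises every other share more in knockout, where the run is larger. The differences were then −0.58 points for Vmn1r85 and 2.03 for Vmn1r89, each with an unchanged exact permutation p of 0.0286. The exact permutation adjusted p of 0.0429 passed the threshold only because 1 more measure, the pair share, reached the smallest p. In that setting the mean share was 1.88% and 1.31% for Vmn1r85, and 4.44% and 6.46% for Vmn1r89.

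In the balance between the 2 receptors the groups lay apart, but the difference missed the threshold after adjustment. Vmn1r85 made up 26.1%, 31.7%, 30.7% and 30.5% of the pair's TPM in heterozygous replicates 1 to 4 and 17.0%, 17.5%, 17.6% and 15.2% in knockout replicates 1 to 4. The groups were apart, with a difference of −12.9 percentage points (exact permutation p = 0.0286, adjusted 0.0571). This proportion does not depend on the V1R sum or on any scaling of a library. Put as a ratio, Vmn1r89 exceeded Vmn1r85 in TPM by 2.38 ± 0.302 times (SD, n = 4) in the heterozygous and 4.96 ± 0.417 times in the knockout group. The 2 genes together held 5.38% ± 0.216 of V1R TPM in heterozygous and 5.53% ± 0.301 in knockout libraries, with overlap (exact permutation p = 0.486, adjusted 0.583). That pair share depended on the denominator: with Vmn1r32 to Vmn1r39 left out it was 6.32% and 7.77%, without overlap (exact permutation adjusted p = 0.0429). Removing a run that is larger in knockout raises the knockout shares more, so this separation cannot be read apart from the choice. The difference in pair share turned to −0.32 points as a share of recovered reads and −0.0224 among the later animals. The sum of V1R TPM without the pair also overlapped, by 0.12 higher in knockout on the log2 scale (exact permutation p = 0.80, adjusted 0.80). That difference turned to −0.40 among the later animals and to −0.17 without heterozygous replicate 2.

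Levels were also set against Gnai2, the G protein subunit of apical neurons, which is expressed in other cells of the tissue as well. Per 100 TPM of Gnai2, Vmn1r85 stood at 4.27 to 5.68 TPM in heterozygous and 1.99 to 3.01 TPM in knockout libraries, so the groups were apart. Vmn1r89 stood at 10.2 to 12.9 and 9.72 to 14.4 TPM on the same scale, with overlap. The ratio of group means, knockout to heterozygous, was 0.518 for Vmn1r85 and 1.09 for Vmn1r89, against a median of 0.455 over the 159 tested V1R genes. On this scale 62.9% of those genes were without overlap, 52.2% lower in knockout and 10.7% higher. The share of all tested genes without overlap on this scale was not computed. Of the 43 measured markers of cell types other than Gnai2 itself, 2 were lower in knockout without overlap on this scale and 0 higher. These were 2 of the 5 basal neuron markers, Gnao1, the G protein subunit of basal neurons, at 8.99 to 10.2 and 7.00 to 8.43 TPM per 100 TPM of Gnai2, and the receptor gene Vmn2r2 at 18.2 to 23.1 and 11.1 to 14.9. The other 3 overlapped, Tfap2e, Robo2 and Vmn2r1, the last of them at 7.84 to 9.82 in heterozygous and 9.19 to 14.3 in knockout libraries. Their part in the receptor values was not tested. The pair summed and taken relative to Gnai2 differed by −0.14 on the log2 scale (exact permutation p = 0.457, adjusted 0.583).

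Placed within the V1R family, Vmn1r85 was a middle gene and Vmn1r89 an upper one. The knockout to heterozygous ratio of mean shares was 0.580 for Vmn1r85 and 1.22 for Vmn1r89, with a median of 0.513 over the 159 tested V1R genes. Of these genes 86 had a lower ratio than Vmn1r85, and 37 a higher ratio than Vmn1r89. Shares were higher in knockout for 45 and lower for 114 of the 159. The log2 fold change of Vmn1r85 in TPM relative to the median gene, −0.89, was itself the median of the tested V1R genes. By level, Vmn1r89 ranked 2 to 4 among V1R genes in heterozygous and 3 to 8 in knockout libraries, and Vmn1r85 ranked 11 to 13 and 19 to 22.

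**Figure D2:**
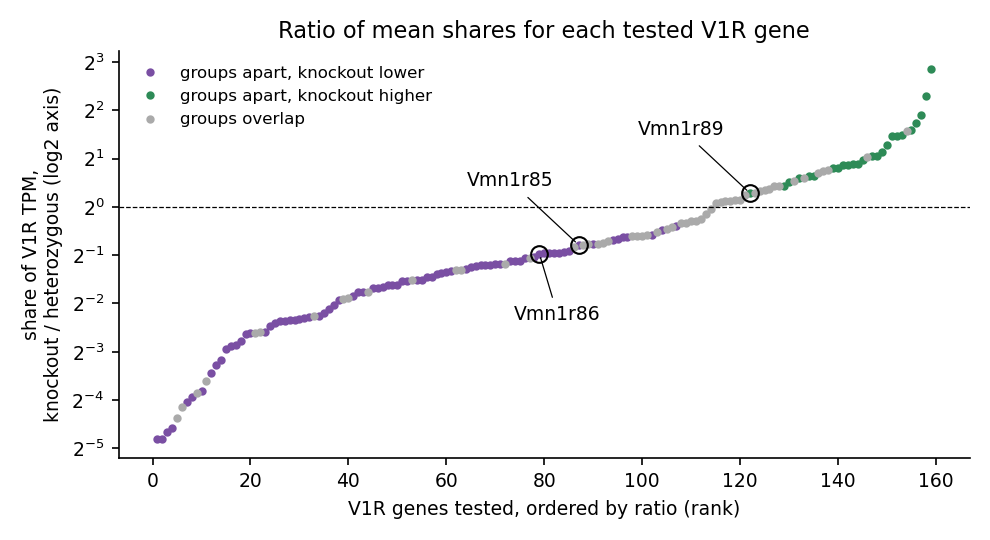
Ratio of the mean share of V1R TPM in knockout to that in heterozygous libraries (log2 axis) for each of the 159 tested V1R genes, ordered by ratio, coloured by whether the 4 heterozygous and 4 knockout libraries overlap. Vmn1r85 (0.580) and Vmn1r86 (0.510) lie in the middle of the family and Vmn1r89 (1.22) among the 45 genes above 1.

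By mean share, Vmn1r89 was the second of all V1R genes in heterozygous libraries and the fifth in knockout libraries. The gene ahead of it in both was Vmn1r35, with 4.70% ± 0.413 in the heterozygous group and 10.3% ± 1.29 in the knockout group (SD, n = 4). Vmn1r27 held 3.4% ± 0.430 and 9.45% ± 1.34, and Vmn1r71 1.71% ± 0.651 and 5.71% ± 1.1, both without overlap. Vmn1r32, at 2.96% ± 0.895 and 5.01% ± 0.899, and Vmn1r33, at 3.12% ± 0.925 and 4.54% ± 0.699, overlapped between groups. Those of Vmn1r89 were 3.78% ± 0.199 and 4.60% ± 0.311.

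Along the chromosome, the genes between and beside the members did not share a single pattern. Vmn1r86, next to Vmn1r85 on the same strand, had shares of 2.08% to 2.72% in heterozygous and 1.13% to 1.33% in knockout libraries, without overlap, and a ratio of 0.510. Vmn1r87 had mean shares of 0.421% ± 0.0756 and 0.378% ± 0.0833 (SD, n = 4), with overlap. Vmn1r88, on the plus strand like Vmn1r89, was at 0.0331% ± 0.00936 and 0.0330% ± 0.0154 and too low to be tested. Beyond the pair, Vmn1r83 had mean shares of 0.501% and 0.105%, Vmn1r84 0.671% and 0.416%, and Vmn1r90 0.439% and 0.335%, in each case lower in knockout without overlap. Vmn1r82, Vmn1r91 and Vmn1r240 overlapped. None of the 10 tested genes of this 11-gene stretch was called in TPM (limma, 0 genes, lowest adjusted p = 0.309, for Vmn1r83). Of the stretch, 1 gene, Vmn1r89, had a higher share in knockout without overlap.

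**Figure D3:**
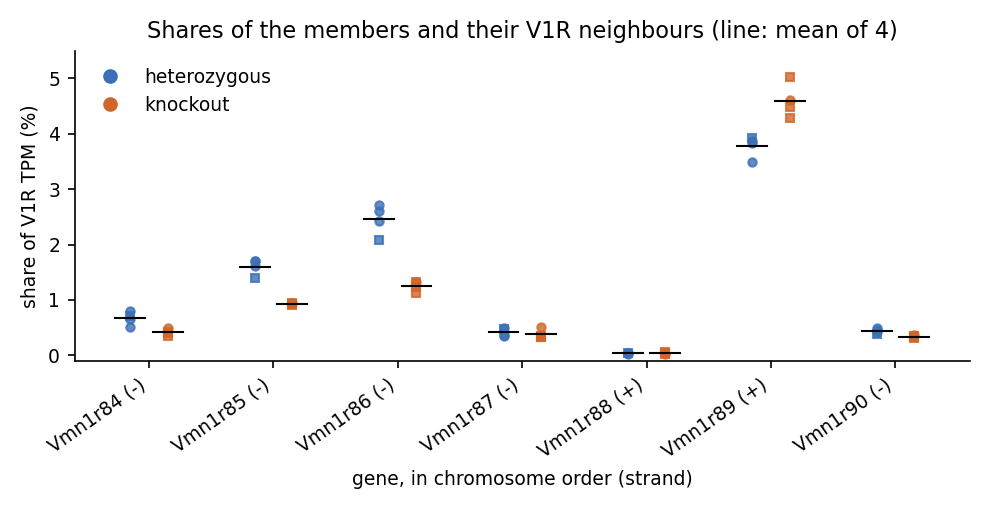
Share of V1R TPM in percent for Vmn1r84 to Vmn1r90 in chromosome order, with the strand in brackets, 1 point per library and a line at the mean of 4. Vmn1r85 and Vmn1r86 lie lower in knockout libraries, Vmn1r89 higher, and Vmn1r88 near 0 in all.

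For Vmn1r89, likeness in sequence and likeness in pattern pointed to different relatives, while for Vmn1r85 Vmn1r86 was first in pattern and, level with Vmn1r89, first in sequence. Vmn1r86, the nearest gene to Vmn1r89 by coding sequence at 90.7%, followed Vmn1r85 instead. In heterozygous replicates 1 to 4 Vmn1r86 stood at 11.2, 8.03, 26.3 and 20.2 TPM, and in knockout replicates 1 to 4 at 5.57, 8.99, 8.73 and 10.3 TPM. Its TPM was 1.5 to 1.60 times that of Vmn1r85 in heterozygous and 1.23 to 1.41 times in knockout libraries, so the 2 neighbours did not keep an exactly constant ratio. Of the shared sequence windows 24 of Vmn1r86 occurred in Vmn1r89 or Vmn1r88, and 97.2% of its coding windows of 100 bases were unique. How reads that match both genes were assigned was not given in the sources used here.

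**Figure D4:**
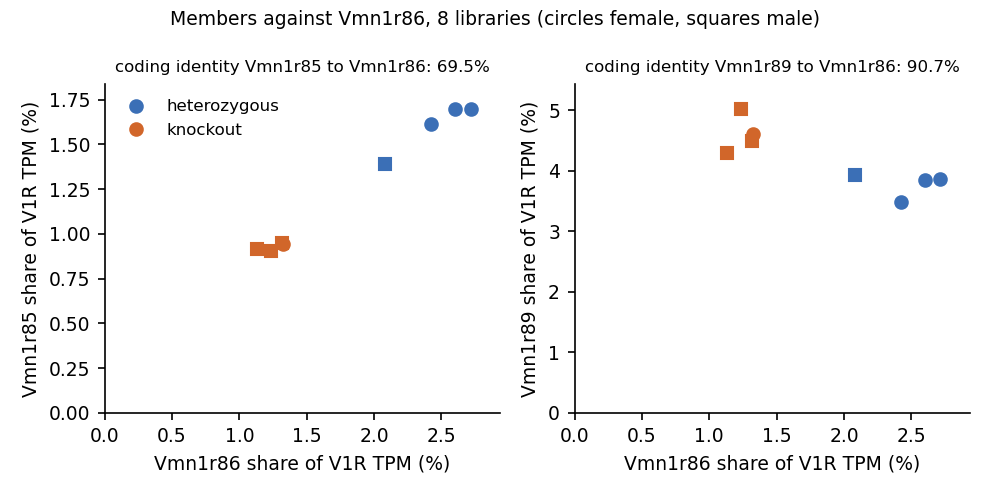
Share of V1R TPM in percent of Vmn1r85 (left) and Vmn1r89 (right) against that of Vmn1r86, 1 point per library. Vmn1r85 lies low where Vmn1r86 is low, in the knockout libraries, whereas Vmn1r89, which is 90.7% identical to Vmn1r86 in coding sequence, lies higher there.

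By likeness of log2 share over the 8 libraries, measured as a Pearson coefficient among 158 other tested V1R genes and given as a description, Vmn1r86 was the gene most like Vmn1r85 (0.99). It was followed by Vmn1r51 on chromosome 6 (0.99), Vmn1r231 on chromosome 17 (0.99), Vmn1r192 on chromosome 13 (0.99) and Vmn1r45 on chromosome 6 (0.98). With the genotype means removed, the coefficients with Vmn1r85 were, in the same order, 0.89, 0.93, 0.73, 0.74 and 0.81. For Vmn1r89 the nearest were Vmn1r57 on chromosome 7 (0.96), Vmn1r18 on chromosome 6 (0.91), Vmn1r56 on chromosome 7 (0.90), Vmn1r198 on chromosome 13 (0.88) and Vmn1r71 on chromosome 7 (0.87). With the genotype means removed these were, in the same order, 0.82, 0.53, 0.70, 0.40 and 0.33. Vmn1r85 and Vmn1r89 had a coefficient of −0.89 with each other, and −0.25 with the genotype means removed. The shares in a library have a common denominator, so these coefficients are not independent of each other.

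Genes that carry the V1R signal onward showed no call by genotype. Of 18 listed genes 16 were tested, 0 were called higher and 0 lower in limma, and 0 had an unadjusted p under 0.05 in limma or in limma-voom. The list's own median stood 0.02 above that of all genes (log2). The genes named from this list and the next were chosen after their values were seen. Gnai2 was at 214 ± 85.2 and 248 ± 46.7 TPM in heterozygous and knockout libraries, and Plcb2, a phospholipase C, at 3.35 ± 1.48 and 4.84 ± 2.07 TPM (SD, n = 4). The chloride channel genes Ano1 and Ano2 stood at 27.3 ± 7.09 and 33.3 ± 10.9 TPM, and at 22.3 ± 5.79 and 22.0 ± 3.42 TPM. The furthest from the median gene was Gng13, a G protein gamma subunit, at 46.4 ± 22.1 and 29.7 ± 2.79 TPM (log2 fold change −0.71, SE 0.37, limma adjusted p = 1.0). Trpc2 was not analysed here.

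Tested genes of steroid signalling and of steroid sulfate metabolism in the tissue itself were likewise uncalled. Of 18 listed genes 13 were tested, with 0 called higher and 0 lower in limma, 0 at an unadjusted p under 0.05 in limma or limma-voom, and a median of −0.01 relative to the median gene. Sult1e1, the estrogen sulfotransferase, stood at 60.2 ± 9.67 and 55.5 ± 13.2 TPM (SD, n = 4), and Papss1, which makes the sulfate donor, at 55.1 ± 13.5 and 57.9 ± 11.4 TPM. The estrogen receptor gene Esr1 was at 0.851 ± 0.619 and 0.767 ± 0.0795 TPM, and Esr2, Pgr, Cyp19a1 and Hsd17b1 were below the level tested. Sts, the steroid sulfatase gene on the list, was not analysed here.

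Markers of the cell types of the organ were measured beside the receptors. Of 45 marker genes in 11 lists 44 were tested, 0 were called in limma or limma-voom, and 1 (Omp) in limma and 3 in limma-voom had an unadjusted p under 0.05. The 3 were Mki67 and Top2a, 2 of the 5 progenitor markers, at 3.10 and 4.14 TPM in the heterozygous and 4.50 and 5.36 TPM in the knockout group, and the basal neuron marker Vmn2r2 at 42.9 and 30.4 TPM. The summed level overlapped between groups for all 11 lists. Apical neuron markers summed to 141 to 387 TPM in heterozygous and 256 to 365 TPM in knockout libraries, and basal neuron markers to 51.0 to 146 and 74.4 to 108 TPM. The ranges were 89.1 to 226 and 152 to 218 TPM for immature neurons, 5.96 to 17.1 and 12.2 to 16.5 TPM for progenitors, and 35 to 78.7 and 32 to 41.8 TPM for main olfactory neurons. Supporting cell markers summed to 1963 to 4831 and 1726 to 2625 TPM, glands to 54312 to 240927 and 126429 to 236669 TPM, immune cells to 47.1 to 164 and 78.8 to 112 TPM, red blood cells to 3894 to 20894 and 4943 to 14310 TPM, and cartilage to 4.09 to 12.2 and 6.94 to 13.5 TPM. The list of mature vomeronasal neurons was measured through Omp alone, at 66.6 to 943 and 571 to 749 TPM. Leaving a library out cannot make groups that lie apart overlap, so only the sizes of the share differences are given. Without heterozygous replicate 1, the library with the low Omp value, they were −0.74 points for Vmn1r85 and 0.87 for Vmn1r89. Without heterozygous replicate 2, the library with the high Cyp2g1 value and the lowest Vmn1r89 share, they were −0.67 and 0.72 points. Their exact permutation p was then 0.0286 and 0.0571 (adjusted 0.0857 and 0.114). What part the other marker levels have in the receptor values was not tested.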

How the data were processed

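Bulk polyadenylated RNA of the vomeronasal organ was sequenced as paired reads from a strand-specific kit, per the labels' protocols. Trim Galore 0.6.5, cutadapt 5.1, STAR 2.7.11b and deepTools 3.5.5 are named, with mm10 and GRCm38, per the submitters' processing notes. The authors deposited TPM values, 1 column per library, and 0 columns were left unused. The gene counting, its use of strand and its handling of reads that match several genes are not given in the sources used here.

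TPM multiplied by exon length (GENCODE M21, available for 27468 genes) fell on whole reads, within 0.05 read, for 97.8% to 98.4% of values up to 12 reads. These recovered reads cover counting error only. The limma test (version 3.58.1, R 4.3.3) was run on log2(TPM + 0.5) for genes averaging 0.5 TPM or more (trend, genotype and sex terms, Benjamini-Hochberg, called under 0.05) and the fit was tested on simulated data. Single measures were compared by two-sided exact permutation over 70 assignments, adjusted over 6 measures. Coding sequences were aligned with Biopython 1.88, and identity is matches over the longer sequence. Identity between receptors was planned for proteins and was computed on coding bases. Other named V1R genes were the neighbours, the 5 with the highest mean share in each group, the 5 most alike in share and the nearest in sequence. The members and lists were chosen with earlier results of these data known. Alternatives were other pseudocounts, no filter, median-ratio scaling, other terms, the later animals alone, limma-voom on recovered reads, other denominators and each library left out.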

Additional observations from a re-analysis of the deposited data

How the results depend on the processing

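Groups that lie apart cannot overlap or turn in direction in a subset of the libraries, and the replicate block uses the same values. Those alternatives therefore could not undo the separation of the shares or of the part of Vmn1r85 in the pair. The shares also kept direction and separation with V1R pseudogenes or Vmn1r32 to Vmn1r39 left out and as shares of recovered reads, where they could have changed. The part of the pair had no such alternative. Leaving out single libraries gave −0.74 to −0.64 points for Vmn1r85, 0.68 to 0.92 for Vmn1r89 and −14.1 to −12.3 for the part of the pair. As a share of recovered reads the differences were −1.09 points for Vmn1r85 and 0.77 for Vmn1r89. Leaving Vmn1r32 to Vmn1r39 out of the denominator put the shares past the threshold, at −0.58 and 2.03 points and 1.45 for the pair (exact permutation adjusted p = 0.0429 each), since 1 more measure then reached the smallest p. The pair share turned to −0.32 points as a share of reads and −0.0224 among the later animals, and ran from 0.02 to 0.26 without single libraries. The V1R sum without the pair turned to −0.40 (log2) among the later animals and ran from −0.17 to 0.36 without single libraries, the low end without heterozygous replicate 2. For the pair relative to Gnai2 that range was −0.21 to −0.02.

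The Vmn1r85 fold change was negative in all 17 alternatives, −1.45 and called among the later animals with the sex term (limma adjusted p = 0.0288) and −1.24 to −0.55 without single libraries. In fits of all 8 libraries the unadjusted limma p of Vmn1r85 ran from 0.00313 with median-ratio scaling (adjusted 0.244) to 0.147 with no filter (adjusted 0.998). The main limma fit gave 0.128. The Vmn1r89 value turned to −0.45 in the fit of the later animals with sex and to −0.00027 with median-ratio scaling, and ran from −0.20 to 0.25 without single libraries. Same-numbered libraries did not deviate together across genes (correlations −0.06 to 0.10), so the numbers were not taken as pairs. With the replicate block and sex as terms the values were again −0.89 and 0.02. The design fixes this, since same-numbered libraries are of opposite sex, so these values are no separate check. In that fit 12 V1R genes and 128 genes in all were called, against 11 and 119. Exact permutation within the 4 numbered pairs (16 swaps) gave an adjusted p of 0.25 for both shares, and its smallest p is 0.125. V1R calls were 3 with no filter, 30 with median-ratio scaling, 19 without the sex term, 32 and 35 among the later animals without and with the sex term, 18 with limma-voom, and 4 (without heterozygous replicate 1) to 28 (without heterozygous replicate 2) without single libraries. Counts more than 1.5 times away from 11 were also 23 without heterozygous replicate 4, 6 without knockout replicate 2 and 19 without knockout replicate 4. Calls over all genes were 72 with no filter, 184 and 371 among the later animals, and 83 (without heterozygous replicate 1) to 254 (without heterozygous replicate 4), with 202 without heterozygous replicate 2 and 190 without knockout replicate 4. The causes of these shifts were not tested. With 4 libraries per group the smallest exact p was 0.0286.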
